A study of Mus musculus with 4 samples.

Results

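Cyclin-dependent kinase inhibitors are small proteins that bind and block the kinases driving the cell cycle, and 6 of their genes were followed across untreated and lipopolysaccharide-treated mouse macrophages with and without a deletion of Ezh2. The 6 genes are Cdkn1a and Cdkn1c of the CIP/KIP family and Cdkn2a, Cdkn2b, Cdkn2c and Cdkn2d of the INK4 family. They were chosen by name, matched through their NCBI gene identifiers, and make up 6 of 15935 genes listed in at least 1 library. All 6 had a row in at least 1 library, and 5 had a row in all 4.

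The cells were bone marrow-derived macrophages, grown from the marrow of adult C57BL/6 mice for 5 days. M-CSF, which macrophage precursors need to survive and mature, was supplied as conditioned medium. The KO cells came from mice with floxed Ezh2 alleles and Cre recombinase under the lysozyme M promoter, labelled EZH2-/-, and the WT cells from mice labelled wild type. This Cre deletes only in cells that turn the promoter on, and the labels state neither the number of mice nor whether WT mice carried Cre. Cells of each genotype were stimulated over 2 h with lipopolysaccharide (LPS), the bacterial ligand of Toll-like receptor 4, or left non-treated (NT). Each of the 4 groups, KO LPS, KO NT, WT LPS and WT NT, had a single library, so the spread between replicates is unknown for every difference given and no test was run. Whether NT and LPS cells of a genotype were split from 1 culture is not stated.

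INK4 proteins bind the kinases CDK4 and CDK6 and keep them from D-type cyclins, while CIP/KIP proteins bind complexes of cyclins with CDK2 and CDK1. Both brakes keep the retinoblastoma protein active, which holds back E2F factors and entry into S phase. Cdkn1a is the best known target of the tumour suppressor p53. The Cdkn2a and Cdkn2b genes lie side by side in a locus known for silencing by Polycomb complexes. The product of Ezh2 is among the catalytic subunits of these complexes. In macrophages LPS is known both to stop proliferation driven by M-CSF and to induce Cdkn1a.

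The library totals were 5237782 expected counts in KO LPS, 5668826 in KO NT, 5635004 in WT LPS and 5678451 in WT NT. Levels are FPKM, fragments per kilobase of transcript scaled to library size, as deposited. All intervals are exact 95% intervals for the error of counting reads, and leave out any variation among mice or cultures. Ezh2 itself had 18 counts in KO LPS, 31 in KO NT, 38 in WT LPS and 43 in WT NT. Its KO to WT ratio was 0.725 without LPS (0.441 to 1.18), an interval that included 1, and 0.512 with LPS (0.275 to 0.919). Over both states the ratio was 0.628 (0.431 to 0.906). Transcript thus remained in the KO libraries, and a gene-level count includes exons outside a deletion. Of 11 macrophage markers all were listed in every library, with a summed level of 3373 to 3850 FPKM, among them Lyz2, the gene whose promoter drives Cre, at 11.6 to 22.4 FPKM. The T and NK cell list of 9 genes summed to 10.01 FPKM in KO LPS and 6.13 in WT LPS, and to 13.8 in KO NT and 8.95 in WT NT. Most of that was Cd4, at 9.03 FPKM in KO LPS and 5.82 in WT LPS (ratio 1.55, 1.20 to 2.02), and at 12.4 in KO NT and 7.70 in WT NT (ratio 1.61, 1.29 to 2.00), while Cd3e, Cd3g, Trac, Ncr1 and Gzma were at 0 throughout. Sums were 0.76 to 3.71 FPKM for B cell markers, 1.35 to 3.23 for dendritic cell markers, 1.44 to 2.48 for progenitor markers and 54.5 to 70.4 for erythroid and megakaryocyte markers. The fibroblast and stromal list, of which KO libraries listed 8 of 10 genes and WT libraries 10 of 10, summed to 5.09 FPKM in KO LPS and 9.18 in WT LPS, and to 4.68 in KO NT and 8.71 in WT NT. Thy1 of that list was at 0 in both KO libraries. The summed level of 15 neutrophil and precursor markers was 618 FPKM in KO LPS and 447 in WT LPS, and 690 in KO NT and 410 in WT NT, with Ly6g at 0 in KO NT and every other marker listed. The part of these cell types in the results below was not tested. RNA was taken from whole cultures, in which fewer cells of a type and less RNA per cell cannot be told apart.

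Among the promoters, those of Cdkn1a and Cdkn2b are shown because these genes had the widest folds with LPS and between the genotypes with LPS. The sequences are RefSeq windows of GRCm38.p6, from 250 bases before an annotated start site to 50 after it. Cdkn1a has an upstream start (chr17:29090729-29091028, plus strand) and a proximal start (chr17:29093519-29093818, plus strand), and Cdkn2b has a single window (chr4:89310983-89311282, minus strand). Capitals mark matches, on either strand, to TATAA, to the GC box GGGCGG, to the cyclic AMP response element TGACGTCA and to the paired cores of a p53 response element, searched as CATG, any 6 bases and CATG.
Cdkn1a upstream: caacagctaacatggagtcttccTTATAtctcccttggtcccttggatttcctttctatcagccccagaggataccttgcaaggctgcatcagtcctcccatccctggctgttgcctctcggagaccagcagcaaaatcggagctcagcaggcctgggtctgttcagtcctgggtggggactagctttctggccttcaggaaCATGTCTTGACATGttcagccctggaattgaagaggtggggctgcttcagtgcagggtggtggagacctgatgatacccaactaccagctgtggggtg
Cdkn1a proximal: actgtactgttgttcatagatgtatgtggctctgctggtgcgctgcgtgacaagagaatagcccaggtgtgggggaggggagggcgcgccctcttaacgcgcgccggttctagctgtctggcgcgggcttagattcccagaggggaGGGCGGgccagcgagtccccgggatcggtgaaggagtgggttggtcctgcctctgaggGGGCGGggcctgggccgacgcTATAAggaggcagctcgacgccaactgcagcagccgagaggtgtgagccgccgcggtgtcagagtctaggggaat
Cdkn2b: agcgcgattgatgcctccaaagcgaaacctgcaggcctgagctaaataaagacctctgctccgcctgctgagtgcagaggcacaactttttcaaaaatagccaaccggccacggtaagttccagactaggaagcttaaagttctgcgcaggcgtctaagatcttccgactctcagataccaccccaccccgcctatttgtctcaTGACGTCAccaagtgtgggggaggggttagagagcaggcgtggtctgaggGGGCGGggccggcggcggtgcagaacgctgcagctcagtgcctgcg

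The upstream Cdkn1a window holds these paired p53 cores from 48 bases before its start site, a pattern present in 0.712% of 32851 mouse promoter windows of this length. It also holds a TATAA match on the opposite strand. The proximal window holds TATAA from 25 bases before its start site and a GC box 46 and 104 bases before it, patterns present in 24.9% and 35.7% of windows. Cdkn2b holds the cyclic AMP response element, present in 1.79% of windows, from 46 bases before its start site, and a GC box just after the start. A search for the NF-kB motif (4.51% of windows) matched neither Cdkn1a window, nor that of Cdkn2b. It did match the Cdkn2d window, not shown, from 37 bases after its start site. These matches are descriptions of the letters and not of binding. The 8 windows found for 5 of the 6 genes differed widely in CpG dinucleotides, the substrate of CpG islands: 45 in the window of the outer Cdkn2a start, which serves the ARF transcript, 33 at the outer Cdkn2c start, 23 at the proximal Cdkn1a start, 18 in Cdkn2b and 2 at the upstream Cdkn1a start, against a median of 7 over all windows.

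Cdkn1a encodes p21, an inhibitor of CDK2 complexes that also binds the replication clamp PCNA. It was by far the most abundant of the 6, with 738 FPKM in KO LPS, 86.5 in KO NT, 849 in WT LPS and 110 in WT NT, from 7378, 937, 9134 and 1196 counts. It was high in both LPS libraries and lower in both KO libraries than in their WT counterparts, and none of the 4 counting intervals overlapped. With LPS it ranked at place 74 of all genes by FPKM in KO and at place 62 in WT, and without LPS at places 811 and 642.

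**Figure D1:**
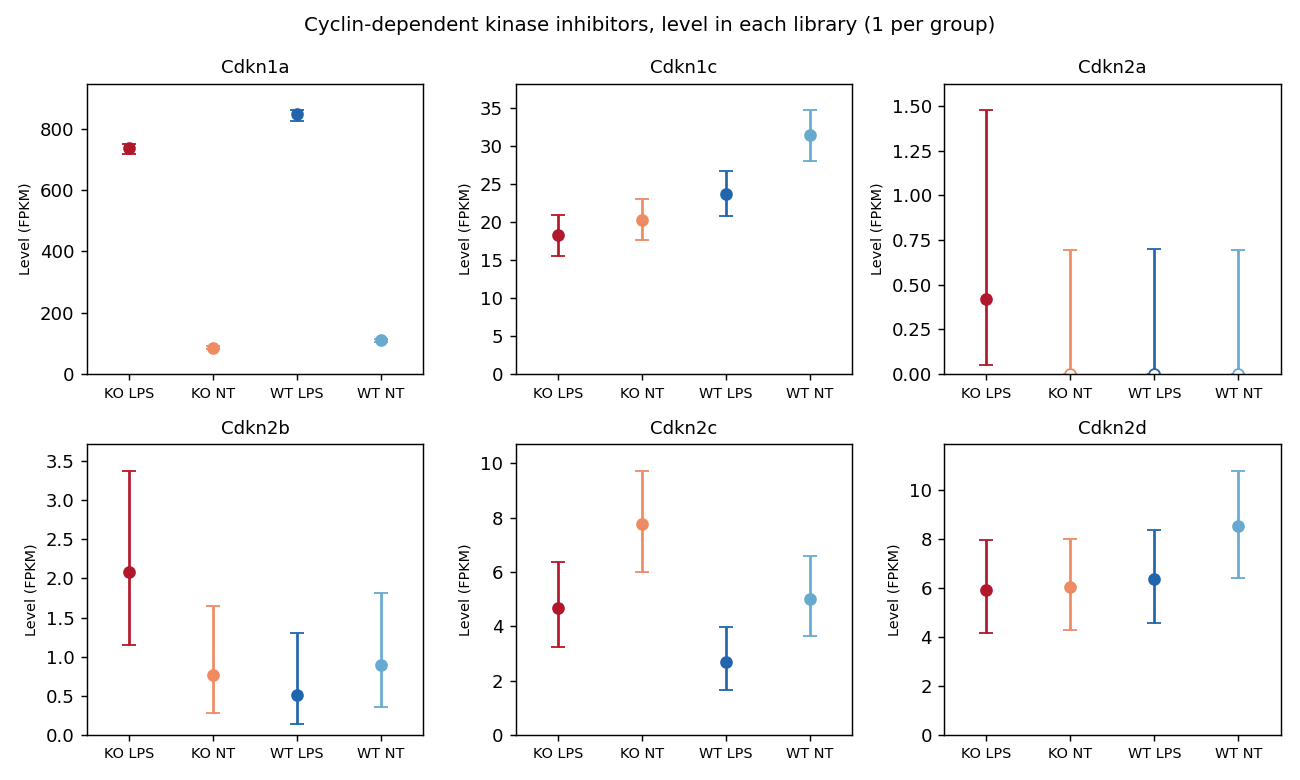
Level in FPKM (vertical axes, each from 0) of the 6 genes in KO LPS, KO NT, WT LPS and WT NT, 1 library each. Points are deposited values, bars the exact 95% counting intervals, open points mean that the gene was not listed. Cdkn1a separates LPS from NT, Cdkn1c is lower in KO and Cdkn2c higher in KO in each state.

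The LPS comparisons ask what stimulation did to each inhibitor. In KO the Cdkn1a level was 8.54 times as high with LPS as without (7.98 to 9.15), and in WT 7.71 times (7.25 to 8.19). On the scale used for all genes, the log2 of FPKM + 1, these are folds of 3.08 and 2.93, while the median gene stood at -0.42 in KO and -0.46 in WT. Cdkn1a was at place 145 from the top of 11069 genes in KO and at place 155 of 10972 in WT. These stand 3.5 and 3.39 above the median gene. A 2-fold difference on this scale was taken as the size rule, applied to the members of at least 1 FPKM in a library compared, 5 in KO and 4 in WT. Cdkn1a alone was past it, on the higher side, in either genotype, where 6.61% of all genes in KO and 6.41% in WT were, and 21.7% and 23.6% were past it in either direction. No member was at least 2-fold lower with LPS, against 15.1% of genes in KO and 17.2% in WT. The fold in KO exceeded that in WT by 0.15 on the log2 scale, and the ratio of both ratios was 1.11 (1.01 to 1.21). With libraries scaled by their median ratio this difference was 0.09. The interval, whose lower end lay close to 1, was not recomputed for that scaling.

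The gene length deposited with Cdkn1a ran from 1913 to 1916 bases over the 4 libraries. In the GENCODE annotation the gene has transcripts of 1913 and 922 bases, which were not matched to its start sites. The annotation the authors used is not given in the sources used here, so no share of start sites was computed.

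Cdkn1c encodes p57, a CIP/KIP inhibitor whose gene is imprinted, with the maternal copy expressed. It was the second most abundant member, with 18.2 FPKM in KO LPS, 20.3 in KO NT, 23.7 in WT LPS and 31.4 in WT NT, from 182, 220, 257 and 343 counts. WT NT stood above the other libraries, with an interval (28.0 to 34.7) that overlapped none of theirs, whereas KO LPS and KO NT could not be told apart by counting error. With LPS the ratio was 0.898 in KO (0.734 to 1.1) and 0.755 in WT (0.640 to 0.890). Relative to the median gene, whose level also lay lower with LPS, the Cdkn1c folds were 0.27 in KO and 0.07 in WT, and with libraries scaled by their median ratio both folds turned sign, to 0.26 in KO in place of -0.15 and to 0.07 in WT in place of -0.39. By the same scaling the median gene shifted to -0.03 in each genotype.

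Among INK4 genes, Cdkn2c encodes p18 and is itself known as an E2F target. It had 4.66 FPKM in KO LPS, 7.78 in KO NT, 2.67 in WT LPS and 5.00 in WT NT, from 36, 69, 23 and 47 counts. It was lower with LPS in both genotypes, at a ratio of 0.598 in KO (0.388 to 0.908) and 0.533 in WT (0.309 to 0.896). These folds lay 0.22 and 0.25 below the median gene on the log2 scale. An interval below 1 was common, shared by 57.1% of genes in KO and 60.3% in WT, and 71.6% and 73.7% had an interval without 1. Of the members of at least 1 FPKM, 1 of 5 in KO (Cdkn2c) and 2 of 4 in WT (Cdkn1c and Cdkn2c) lay below 1, and 1 in each genotype, Cdkn1a, lay above 1, as 14.5% of genes did in KO and 13.4% in WT.

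Cdkn2d encodes p19INK4d. It had 5.93 FPKM in KO LPS, 6.04 in KO NT, 6.36 in WT LPS and 8.56 in WT NT, from 39, 43, 45 and 61 counts. Its 4 intervals overlapped, and no ratio between libraries had an interval without 1. The LPS ratios were 0.982 in KO (0.620 to 1.55) and 0.744 in WT (0.494 to 1.11), and the folds stood 0.39 and 0.08 above the median gene. With median-ratio scaling these folds turned sign too, to 0.34 in KO in place of -0.02 and to 0.04 in WT in place of -0.38.

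Cdkn2b encodes p15, an inhibitor of CDK4 and CDK6 that TGF-beta is known to induce. It was near the limit of detection, with 15 counts in KO LPS, 6 in KO NT, 4 in WT LPS and 7 in WT NT, or 2.08, 0.77, 0.51 and 0.89 FPKM. KO LPS was highest, and all 4 intervals overlapped. The LPS ratio was 2.71 in KO (0.992 to 8.52) and 0.576 in WT (0.124 to 2.27). Only the comparisons that include KO LPS passed the filter of 1 FPKM, which the high value itself brought about.

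Cdkn2a encodes both p16 and, from another first exon, ARF. It had 2 counts in KO LPS (0.42 FPKM) and was not listed in KO NT, WT LPS or WT NT. A count of 0 allows up to 0.567 FPKM in KO NT, 0.571 in WT LPS and 0.566 in WT NT, taking 3 counts as the limit, so no difference was detectable at this depth and no fold is given. The lncRNA gene Gm12610, which overlaps Cdkn2b and begins 560 bases from Cdkn2a, had 1.07 counts in KO LPS and none elsewhere. Only the spans of these genes were compared, and whether their exons overlap was not examined. Reads from any shared exon could not be told apart where counting did not use strand. On the other side, Mtap, an enzyme of methionine salvage, was at 8.86 FPKM in KO LPS, 9.91 in KO NT, 5.33 in WT LPS and 9.96 in WT NT.

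Per length, Cdkn1a made up 95.9% of the summed FPKM of the 6 genes in KO LPS, 71.3% in KO NT, 96.2% in WT LPS and 70.6% in WT NT. The 4 INK4 genes together summed to 13.1 FPKM in KO LPS, 14.6 in KO NT, 9.54 in WT LPS and 14.45 in WT NT. Within each library the order was Cdkn1a, Cdkn1c, then Cdkn2c and Cdkn2d, then Cdkn2b and Cdkn2a. The intervals of Cdkn2c and Cdkn2d overlapped in KO LPS, KO NT and, narrowly, WT NT, but not in WT LPS, where Cdkn2d had 6.36 FPKM (4.56 to 8.37) and Cdkn2c 2.67 (1.67 to 3.96).

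The genotype comparisons ask how deletion of Ezh2 bore on the inhibitors, among them the Polycomb-regulated INK4 locus. Without LPS none of the 4 members of at least 1 FPKM was at least 2-fold apart, against 1.81% of all genes (0.928% higher and 0.883% lower). With LPS 1 of 5 was, Cdkn2b, on the higher side (1.45% of genes, beside 1.12% lower and 2.56% in all). It had 15 counts in KO LPS and 4 in WT LPS, a ratio of 4.03 (1.29 to 16.7), and was among the 5 only through its level in KO LPS. Without LPS its ratio was 0.859 (0.238 to 2.98). Over both states Cdkn2b had 21 counts in KO and 11 in WT, a ratio at equal totals of 1.98 with an interval that included 1 (0.913 to 4.55).

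The other differences were smaller than 2-fold and had the same direction in both states. Cdkn1c was at 0.645 times the WT level in KO without LPS (0.542 to 0.766) and at 0.767 with LPS (0.631 to 0.931). Pooled over states its ratio was 0.695 (0.611 to 0.790), from 402 counts in KO and 600 in WT. Without LPS only 308 of 10990 genes had a fold as low as that of Cdkn1c or lower. The fibroblast and stromal markers were lower in KO too, 4 of 4 measured below 0 without LPS with a median of -0.60 and 4 of 5 with LPS with a median of -0.79. Col3a1 and Fn1 without LPS, and Col1a1, Col1a2 and Col3a1 with LPS, passed the filter of 1 FPKM only through WT. Pdgfrb with LPS passed it only through KO. No marker of this list was above 2.29 FPKM. The part of these markers in the Cdkn1c difference was not tested. Cdkn1a was at 0.784 (0.719 to 0.855) without LPS and 0.869 (0.843 to 0.896) with LPS. Cdkn2c was higher, at 1.56 (1.06 to 2.30) without LPS and 1.74 (1.01 to 3.08) with LPS, and 1.56 (1.14 to 2.14) over both states. The lower end of its interval with LPS lay close to 1. That interval uses the length deposited for each library and was not recomputed with 1 common length. Cdkn2d was at 0.706 (0.467 to 1.06) and 0.932 (0.591 to 1.46), both including 1.

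Counted against all genes, 2 of the 4 members of at least 1 FPKM without LPS had an interval below 1, a property of 11.5% of genes, and 1 an interval above 1, against 14.2%, where 25.7% had an interval without 1. With LPS 2 of 5 lay below 1, against 9.50% of genes, and 2 above, against 21.1%, where 30.6% had an interval without 1. The 2 above were Cdkn2b and Cdkn2c, the latter only just, with a lower end of 1.01 from lengths that differed between the libraries. The median gene was at 0.02 without LPS and 0.08 with LPS. These directions of Cdkn1a, Cdkn1c and Cdkn2c held under every scaling tried, among them median-ratio scaling and CPM.

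**Figure D2:**
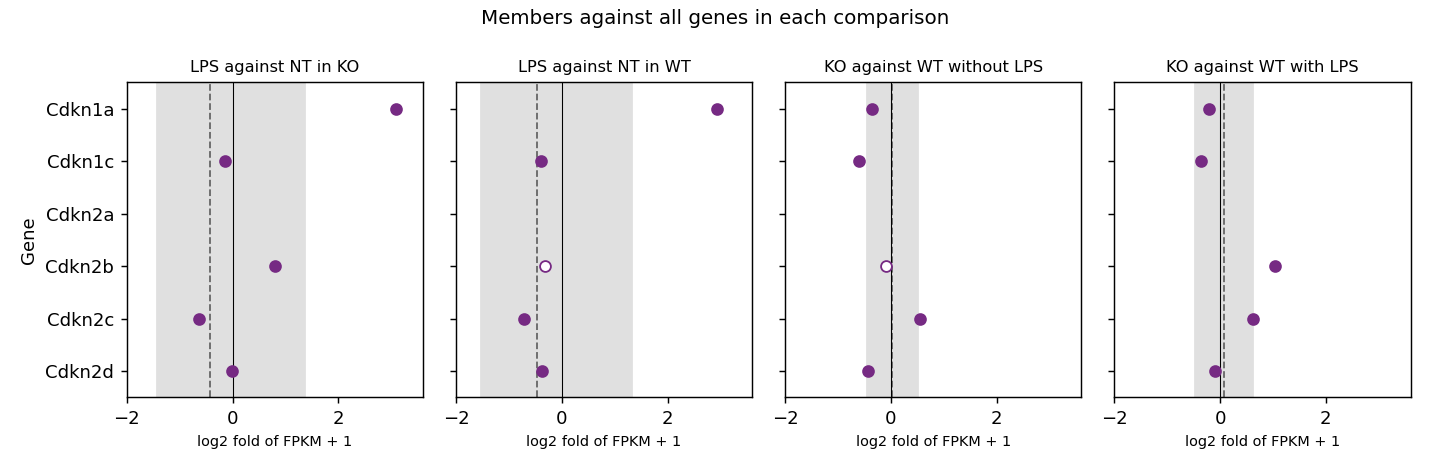
Log2 fold of FPKM + 1 (horizontal axes) of each member in the 4 comparisons. Filled points reached 1 FPKM in a library compared and open points did not, the dashed line is the median and the grey band the 5th to 95th percentile of all genes. Cdkn1a lies far right of the band with LPS in KO (3.08) and WT (2.93), and Cdkn2a, with at most 2 counts, has no point.

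The neighbours of these genes on the chromosome were looked at for the same pattern. Kcnq1, on one side of Cdkn1c, had 3 counts in WT NT and none elsewhere. Slc22a18, on its other side and imprinted like it, had 7 counts in KO LPS, 17 in KO NT, 8 in WT LPS and 11 in WT NT. Kcnq1ot1, the non-coding RNA that silences the domain on the paternal copy and overlaps Kcnq1, had 651 counts in KO LPS, 659 in KO NT, 830 in WT LPS and 712 in WT NT. Its ratio was 0.927 without LPS (0.833 to 1.03) and 0.844 with LPS (0.760 to 0.936). Of 11 genes in the imprinted domain 6 reached 1 FPKM without LPS, 3 above 0 and 3 below, with a median log2 fold of 0.07. Cd81, a tetraspanin in that region, was at 47.5 FPKM in KO NT and 57.6 in WT NT, the only measured gene of the list with an interval below 1 there (ratio 0.825, 0.722 to 0.942).

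Trp53cor1, the p53-induced non-coding RNA upstream of Cdkn1a, had 3 counts in KO LPS, 3 in KO NT, none in WT LPS and 7 in WT NT. Rab44 on the other side had 20 counts in KO LPS, 22 in KO NT, 8 in WT LPS and 11 in WT NT. Neither followed the LPS pattern of Cdkn1a. Faf1, next to Cdkn2c, was level at 8.29 FPKM in KO LPS, 8.45 in KO NT, 8.14 in WT LPS and 8.28 in WT NT, and Rnf11 on the other side was at 32.5, 25.6, 22.0 and 23.3 FPKM. Kri1, whose end lies 489 bases from Cdkn2d, was at 12.8, 15.4, 13.4 and 18.5 FPKM in that order, highest in WT NT as Cdkn2d was, and Slc44a2 on the other side was at 11.3, 17.3, 10.6 and 19.2 FPKM.

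The kinases and cyclins that the inhibitors bind stood on both sides of the median gene with LPS. The lists of genes used from here on, like the members, were chosen with earlier results of these data known. Of the INK4 targets, Ccnd2 (cyclin D2) had 9.40 FPKM in KO LPS and 0.64 in KO NT, and 8.94 in WT LPS and 0.76 in WT NT, ratios of 14.8 and 11.9. Ccnd1 had 23.5 FPKM in KO LPS and 45.4 in KO NT, and 17.8 in WT LPS and 39.2 in WT NT. Ccnd3 was likewise lower with LPS, at ratios of 0.521 and 0.446. Cdk6 was at 31.2 FPKM in KO LPS and 13.6 in KO NT, and at 27.3 in WT LPS and 14.3 in WT NT, so a D cyclin and a kinase stood higher while both other D cyclins stood lower. The 5 genes had a median log2 fold of -0.55 in KO and -0.63 in WT. The CIP/KIP targets were all below 0 with LPS, 7 of 7 in KO and 6 of 6 in WT, and none was past the size rule on the log2(FPKM + 1) scale, with medians of -0.39 and -0.49, close to those of all genes. As plain FPKM ratios, Ccne2 (cyclin E2) stood at 0.425 in KO (0.240 to 0.725) and Cdk2 at 0.492 in WT (0.387 to 0.621), both beyond 2-fold.

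Downstream of the inhibitors, 2 of 12 measured RB and E2F genes were at least 2-fold lower with LPS in each genotype and 1 at least 2-fold higher. Over all genes 15.1% in KO and 17.2% in WT were lower and 6.61% and 6.41% higher, so these counts lay near the background. E2f8, an atypical E2F that represses transcription, was the higher gene, with 12.8 FPKM in KO LPS and 3.71 in KO NT, and 8.57 in WT LPS and 2.03 in WT NT. E2f2 and E2f6 were the lower ones. S-phase genes were below 0 in 19 of 20 in KO and 17 of 19 in WT, with medians of -0.66 and -0.64. The median of all genes was below 0 too, at -0.42 in KO and -0.46 in WT. An interval below 1 was held by 16 of 20 S-phase genes in KO and 14 of 19 in WT, against 57.1% and 60.3% of all genes. In each genotype 2 S-phase genes were at least 2-fold lower, a smaller share than over all genes. Cdt1, which licenses replication origins, was at 13.4 FPKM in KO LPS and 39.0 in KO NT, and at 11.5 in WT LPS and 31.2 in WT NT. The mitotic genes had medians of -0.41 in KO and -0.19 in WT, with Mki67, which encodes the proliferation antigen Ki-67, far from the rest at 64.7 FPKM in KO LPS and 3.10 in KO NT, and at 63.2 in WT LPS and 1.79 in WT NT. With median-ratio scaling the S-phase medians were -0.26 in KO and -0.18 in WT.

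Other p53-responsive genes stood on both sides with LPS. Of 20 measured, 3 were past the size rule above NT and 6 below it in KO (6.61% and 15.1% of all genes), and 4 and 8 were in WT (6.41% and 17.2%), with medians of -0.43 and -0.51 beside -0.42 and -0.46 for all genes. Mdm2, the p53-induced ubiquitin ligase that degrades p53, had the directions of Cdkn1a in all 4 comparisons. It was at 151 FPKM in KO LPS and 49.4 in KO NT, a ratio of 3.05 (2.82 to 3.30), and at 177 in WT LPS and 64.75 in WT NT, a ratio of 2.74 (2.56 to 2.93). Its KO to WT ratio was 0.763 (0.698 to 0.834) without LPS and 0.850 (0.806 to 0.897) with LPS. Plk2, a polo-like kinase, had these directions too, with LPS ratios of 1.34 in KO and 1.71 in WT and KO to WT ratios of 0.804 without LPS and 0.631 with LPS. Gadd45a, a stress-induced growth arrest gene, was higher with LPS, at ratios of 2.28 in KO and 2.12 in WT, while its intervals between the genotypes included 1. Mdm2 and Gadd45a were chosen after their values were seen. Fas, a death receptor, was at 26.5 FPKM in KO LPS and 3.66 in KO NT, and at 20.25 in WT LPS and 4.87 in WT NT. Sesn1, a stress sensor, was at 5.05 FPKM in KO LPS and 73.25 in KO NT, and at 3.55 in WT LPS and 38.3 in WT NT. Sesn2 and Trp53inp1 were lower with LPS as well, at ratios of 0.250 and 0.110 in KO and 0.233 and 0.150 in WT. Transcription factors known to act on Cdkn1a were divided too. Of 16 genes, 4 were past the size rule on the higher side in KO and 2 on the lower side (6.61% and 15.1% of all genes). In WT 5 and 3 of the 16 were (6.41% and 17.2% of all genes). Irf1, an interferon regulatory factor, had 354 FPKM in KO LPS and 37.2 in KO NT, and 463 in WT LPS and 40.8 in WT NT. Egr1 had ratios of 14.0 in KO and 24.0 in WT, while Foxo3 had 0.102 and 0.119 and Cebpa 0.0593 and 0.0682.

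Between the genotypes the cell cycle lists had medians on the higher side in KO. The median of all genes was itself above 0, at 0.02 without LPS and 0.08 with LPS. Without LPS, 19 of 20 S-phase genes were above 0, with a median of 0.56 and 3 at least 2-fold higher (0.928% of all genes), and 11 of 12 RB and E2F genes were above 0, with a median of 0.20. Mcm5, a subunit of the replicative helicase, was at 27.3 FPKM in KO NT and 10.7 in WT NT, and E2f1 at 22.95 in KO NT and 14.5 in WT NT. With LPS 17 of 19 S-phase genes were above 0, with a median of 0.52, and Mcm7 was at 12.7 FPKM in KO LPS and 4.66 in WT LPS. Of the mitotic genes 13 of 14 were above 0 without LPS, with a median of 0.41, and 9 of 10 with LPS, with a median of 0.25. Cdkn2c stood on the same side as these lists, and Cdkn1a, Cdkn1c and Cdkn2d on the other. The neutrophil and precursor markers were higher in KO as well, with a median of 0.58 without LPS and 0.38 with LPS, and their part was not tested. The p53-responsive list had medians of 0.00 without LPS and 0.09 with LPS, 10 of 20 and 11 of 20 above 0, and Plk2 of this list was at 151 FPKM in KO LPS and 239 in WT LPS.

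**Figure D3:**
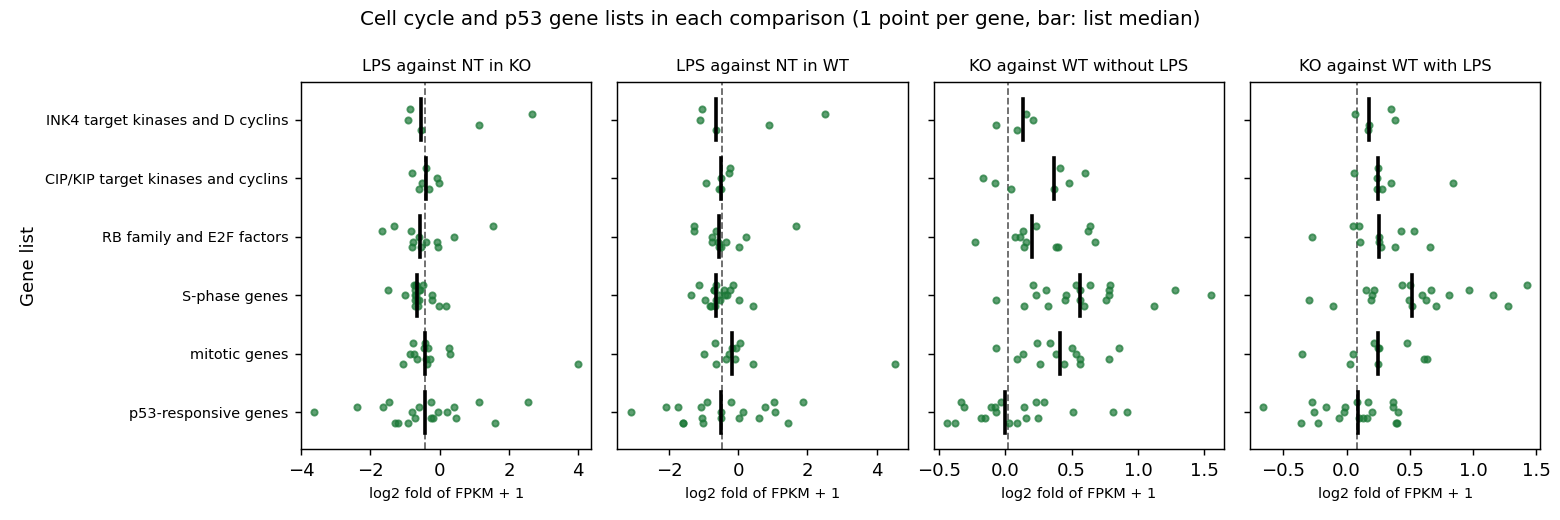
Log2 fold of FPKM + 1 (horizontal axes, which differ between panels) of the genes of 6 lists in the 4 comparisons, 1 point per gene of at least 1 FPKM. Black bars are list medians and dashed lines the median of all genes. The S-phase medians lie right of the dashed line in both genotype panels (0.56 without LPS and 0.52 with LPS), and p53-responsive genes spread to both sides with LPS.

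Regulators of the Cdkn2a-Cdkn2b locus included genes far apart with LPS. Of 16 measured, 4 were past the size rule on the higher side with LPS in each genotype (6.61% of all genes in KO and 6.41% in WT) and 1 on the lower side (15.1% and 17.2%). Between the genotypes 0 of 16 were past it without LPS and 0 of 14 with LPS, where 1.81% and 2.56% of all genes were, shares at which lists of this size would hold few or none. Kdm6b, a demethylase that removes the mark made by Ezh2, was at 20.5 FPKM in KO LPS and 1.13 in KO NT, and at 16.1 in WT LPS and 1.1 in WT NT. Ets2, a factor known to activate Cdkn2a in human fibroblasts, was at 120 FPKM in KO LPS and 8.22 in KO NT, and at 156 in WT LPS and 15.3 in WT NT. Its KO to WT ratio without LPS was 0.538 (0.443 to 0.651), while the related Ets1 was at 1.64 (1.12 to 2.42) without LPS and 2.49 (1.70 to 3.69) with LPS. As a plain FPKM ratio Ets1 with LPS was thus beyond 2-fold, though not past the size rule on the log2(FPKM + 1) scale. Of the TGF-beta list, Skil, a SMAD corepressor, had ratios with LPS of 6.31 in KO and 7.07 in WT. Tgfbr1 and Tgfbr2, the receptors, had KO to WT ratios of 1.15 and 1.12 without LPS and of 1.24 each with LPS.

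Over the 4 libraries, the genes whose profile was nearest to each member were sought among 6670 genes of at least 50 counts in 1 library, 6671 for Cdkn2d, as the distance between log2 profiles centred on their own mean. Nearest to Cdkn1a were Plaur, the urokinase receptor, at a distance of 0.129, then Pvr (0.180) and Tgm2 (0.186). Plaur was at 197 FPKM in KO LPS, 23.6 in KO NT, 211 in WT LPS and 27.7 in WT NT. Nearest to Cdkn2c was Rrm1, the large subunit of ribonucleotide reductase and a member of the S-phase list, at a distance of 0.035, with 9.91 FPKM in KO LPS, 15.6 in KO NT, 5.86 in WT LPS and 10.2 in WT NT. Gpr176 (0.062) and Igfbp4 (0.066) followed. Nearest to Cdkn1c were Gde1 (0.066), Il3ra (0.077) and Ptgr1 (0.082), and nearest to Cdkn2d were Qsox2 (0.054), Soat2 (0.078) and Pop7 (0.092). With 4 points a profile, and with ranges of only 0.76 for Cdkn1c and 0.46 for Cdkn2d on the log2 scale, many genes lie close and the order among them is not established.

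**Figure D4:**
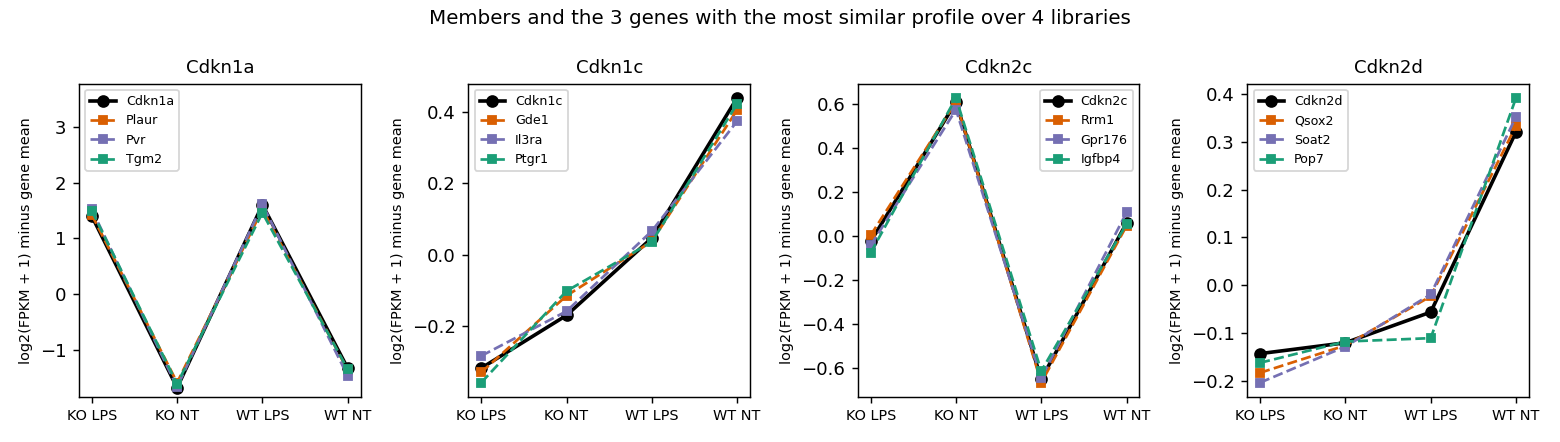
Log2(FPKM + 1) minus the mean of each gene (vertical axes) over KO LPS, KO NT, WT LPS and WT NT for 4 members (black) and the 3 genes nearest to each (coloured, dashed). Lines only join the libraries of a gene. Rrm1 follows Cdkn2c at a distance of 0.035, and Plaur follows Cdkn1a at 0.129.

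The length deposited with Cdkn2c differed between libraries, 1488 bases in KO LPS, 1576 in KO NT, 1541 in WT LPS and 1666 in WT NT. The gene has transcripts of 1106 and 2471 bases in the GENCODE annotation, which were not matched to its start sites. With 23 to 69 counts per library the mix of transcripts was not resolved. With 1 common length per gene its KO to WT log2 fold kept its direction in both states. It was then 0.48 without LPS in place of 0.55, and 0.58 with LPS in place of 0.63. Whether the interval with LPS would still exclude 1 at that length was not computed.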

How the data were processed

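Total RNA of 4 macrophage samples was purified with Trizol and RNeasy columns for HiSeq sequencing, per the labels' protocols. The submitters' processing notes name Bowtie, RSEM and the genome mm10. Tool versions, gene annotation and strand setting: not given in the sources used here. The deposited expected count is the authors' estimated number of reads per gene, which need not be whole because reads with several possible origins are shared out. The deposited FPKM is the authors' level per transcript length and library size. Of 15935 listed gene identifiers, 15897 matched a symbol in the RefSeq table of GRCm38.p6. A gene missing from a table was set to 0.

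Folds are differences of log2(FPKM + 1), which understate low genes, and a gene entered a comparison when either library had 1 FPKM or more. FPKM ratios have exact 95% Clopper-Pearson intervals from expected counts rounded to whole numbers, ratios of ratios exact conditional intervals, and counts exact Poisson intervals. They and the limit of 3 counts cover counting error only, since PCR reads are not independent molecules. Ratios pooled over states use summed counts at equal totals. No test was run, since each group had 1 library. Named genes were every member, up to 4 per list and comparison with the largest folds among genes of at least 50 counts, the nearest listed neighbours, and the 3 most similar profiles among genes listed in all 4 libraries with a log2 range of at least 0.5. Markers printed by name fall outside this rule. The pooled ratios and the paired p53 pattern were chosen after the data were seen. The members and lists were chosen with earlier results of these data known. Promoters and gene coordinates are from RefSeq and transcript lengths from GENCODE. Alternatives were median-ratio scaling, a 5 FPKM filter or none, pseudocounts of 0.1 and 5, CPM, 1 length per gene, and size rules of 1.5 and 3. The computations were tested on simulated data. Python 3.11.15, numpy 2.4.6, pandas 2.3.3 and scipy 1.17.1 were used.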

Additional observations from a re-analysis of the deposited data

Results flagged for a closer look

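The LPS response of Cdkn2b went opposite ways in the genotypes. Its log2 fold was 0.80 in KO, from 15 counts with LPS and 6 without, and -0.32 in WT, from 4 and 7 counts, a difference of 1.12. The difference was not tested, since each group had 1 library. The ratio of both LPS ratios was 4.46, with a counting interval that included 1 (0.790 to 29.7), and the WT libraries were both below 1 FPKM.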

How the results depend on the processing

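Of 123 member folds recomputed under the alternatives 118 moved by less than counting error, as did all 34 differences of LPS responses. The exceptions came from median-ratio scaling, which moved the median of all genes from -0.42 and -0.46 to -0.03 in each LPS comparison and so shifts LPS folds upwards by construction. Cdkn1a was then at 3.5 for LPS in KO, 3.41 in WT and -0.27 for KO against WT with LPS, and Cdkn1c turned sign for LPS, to 0.26 in KO and 0.07 in WT, as did Cdkn2d, within counting error, to 0.34 in KO and 0.04 in WT. With that scaling the list medians for LPS in WT were -0.17 for CIP/KIP targets, -0.18 for S-phase genes and 0.36 for the TGF-beta list, and -0.26 for S-phase genes in KO. A pseudocount of 5 gave -0.20 for CIP/KIP targets in WT and -0.46 for S-phase genes in KO, and the mitotic median for KO against WT without LPS was 0.69 with CPM and 0.71 with a pseudocount of 0.1. The other 263 of 271 list medians stayed within the order-statistic interval of their list.

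The count of genes past the size rule depended on it. For LPS in KO, LPS in WT, KO against WT without LPS and KO against WT with LPS, it was 2400, 2591, 199 and 266 at 2-fold, 5270, 5506, 767 and 941 at 1.5-fold, and 831, 898, 86 and 100 at 3-fold. A pseudocount of 5 gave 904, 937, 45 and 69. For the genotype comparisons a pseudocount of 0.1 gave 462 and 542, and a filter of 5 FPKM 83 and 127. The share of higher genes was 30.5% in KO and 27.1% in WT for LPS, 58.8% and 56.0% with median-ratio scaling, 55.9% and 51.8% with a pseudocount of 5. For KO against WT with LPS it was 56.4%, 66.7% with CPM, 49.7% with median-ratio scaling and 46.4% with a pseudocount of 5, so the majority was on the lower side in the last 2. The limit of 3 counts in place of 0 concerned only Cdkn2a, which has no fold. Leaving out a library was not possible with 1 per group. No paired analysis was possible because each group has 1 library and the labels give no replicate numbers. Depth limits Cdkn2a and Cdkn2b, at 0 to 15 counts, most.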
